A study of Mus musculus with 6 samples.

Results

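The 9 genes described here mark subsets of mature B-cells in the mouse spleen or belong to the Notch2 pathway: Cr2, Fcer2a, Cd1d1, Cd9, Notch2, Dtx1, Hes1, Asb2 and Plac8. They were taken by name, as known marginal zone, follicular and Notch2 genes, from a count table of 46963 gene names. All 9 were among the 14600 names that were tested, those that reached 10 counts in 2 or more libraries.

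RNA was sequenced from splenic B-cells depleted of CD43-bearing cells. The mice were wt, lacked the Eμ enhancer region of the immunoglobulin heavy chain (IgH) locus (Eμ-deficient, called EμMAR-deficient in the study's methods), or lacked the 3′ regulatory region (3′RR) at the far end of that locus. The methods place them in a 129 background, at 8 to 12 weeks of age and of both sexes. Each genotype gave 1 library of resting cells and 1 library of cells cultured for 2 days with lipopolysaccharide (LPS), a bacterial cell wall component that activates B-cells. The sample labels and the study's methods give LPS at 5 µg per ml, whereas the protocol text that accompanies the labels gives the same figure in mg per ml. The labels put resting cells in culture for 2 days as well, whereas the methods describe cells taken before stimulation, so the effects of LPS and of time in culture cannot be told apart. Each library is labelled as a pool of 2 mice. The study's methods instead describe 2 pools of 2 for every genotype, from 4 mice, and a figure legend 2 experiments with 3 mice, but the count table holds 1 column per genotype and state. With 1 library per genotype and state there was no replicate spread, and the same wt library served both mutants in each state.

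Marginal zone B-cells lie at the border of the splenic white pulp and respond quickly to antigens carried by blood, bacterial lipopolysaccharide among them, whereas follicular B-cells recirculate between blood and lymphoid follicles. On the cell surface, marginal zone cells carry much CD21 (encoded by Cr2), CD1d and CD9 and little CD23 (encoded by Fcer2a), and follicular cells carry less CD21 and more CD23. The marginal zone fate needs the receptor Notch2: its ligand Dll1 on stromal cells triggers cleavage of Notch2 by ADAM10 and γ-secretase, and the freed intracellular part joins the DNA-binding protein RBPJ to switch on targets such as Hes1 and Dtx1.

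Counts assigned to genes were 16094475 in wt, 13406257 in Eμ-deficient and 20780706 in 3′RR-deficient resting cells. In the LPS cultures they were 21998587, 10936243 and 9111974 in the same order. Levels are given as counts per 1000000 counts of the library after edgeR's TMM scaling (CPM), and intervals are exact 95% binomial intervals that cover counting error only. Spike-in RNAs are used here as a gauge of technical spread, on the assumption that every library received the same mixture. Each spike-in was scaled to the spike-in total of its library, and genes were scaled to the gene counts. The SD over spike-ins does not depend on that choice, but the position of a gene against a spike-in range does, here and below. Over 35 spike-ins, the SD of the log2 ratio to wt was 0.16 for 3′RR-deficient and 0.48 for Eμ-deficient resting cells, and 0.44 for Eμ-deficient cells with LPS. The ratio of 3′RR-deficient to wt cells with LPS stood apart. Its spike-in SD was 1.27, and it followed the GC content of transcripts with a Spearman rho of 0.56. That rho runs across 13993 genes, which are not independent replicates. A ratio does not show which of its libraries departs. Set against its own resting library, the LPS library had a spike-in SD of 0.78 in wt and 0.63 in 3′RR-deficient cells. The rho with GC content was then -0.26 and 0.14.

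The B-cell label was checked on 7 genes that B-cells share, among them Cd79a, Ms4a1 and Pax5. None of the 7 was at 0 in any of the 6 libraries, and their summed level was 3474 CPM in wt, 2827 in Eμ-deficient and 3869 in 3′RR-deficient resting cells. With LPS it was 2426 CPM in wt, 2134 in Eμ-deficient and 2391 in 3′RR-deficient cells, and Ptprc, which encodes CD45, was the most abundant of the 7 in all 3 resting libraries. Spn, which encodes the CD43 used for depletion, was at 14.0 CPM in wt, 10.1 in Eμ-deficient and 17.2 in 3′RR-deficient resting cells. With LPS, Spn stood at 20.03 CPM in wt, 40.4 in Eμ-deficient and 90.1 in 3′RR-deficient cells. The deleted enhancers have no gene name in the count table, so the genotypes were not checked from these counts.

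Cr2 encodes complement receptor 2 (CD21), which binds complement fragments on antigen and lowers the threshold of B-cell activation. The gene lies at chr1:195136811-195176716, minus strand of GRCm38. Its level was 394 CPM in wt, 731 in Eμ-deficient and 398 in 3′RR-deficient resting cells. Among LPS-treated cells it was 109.8 CPM in wt, 86.9 in Eμ-deficient and 59.8 in 3′RR-deficient cells. The Eμ-deficient resting library was the highest of the 6, and all 3 LPS libraries lay below all 3 resting ones.

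Cd1d1 encodes CD1d, which presents lipid antigens to NKT cells. Resting levels were 28.1 CPM in wt, 73.2 in Eμ-deficient and 35.7 in 3′RR-deficient cells. With LPS they were 7.65 CPM in wt, 9.93 in Eμ-deficient and 4.61 in 3′RR-deficient cells. As for Cr2, the Eμ-deficient resting library stood highest and no LPS library reached a resting one. Of the 75-base stretches in Cd1d1 transcripts, 14.2% also occur in other genes, most of them in its near-identical neighbour Cd1d2. Cd1d2 itself had 18, 63 and 19 counts in wt, Eμ-deficient and 3′RR-deficient resting cells, against 510, 967 and 734 for Cd1d1.

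Cd9 encodes a tetraspanin, a membrane protein that organises other surface proteins and marks marginal zone cells, B-1 cells and plasma cells. It was at 22.6 CPM in wt, 44.1 in Eμ-deficient and 16.9 in 3′RR-deficient resting cells. With LPS it was at 31.0 CPM in wt, 32.3 in Eμ-deficient and 15.4 in 3′RR-deficient cells. Resting and LPS values of Cd9 overlapped, unlike those of Cr2 and Cd1d1, and 3′RR-deficient cells were lowest in both states.

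Fcer2a encodes CD23, the low-affinity receptor for IgE, and marks follicular B-cells. Resting levels were 119 CPM in wt, 64.2 in Eμ-deficient and 226 in 3′RR-deficient cells. With LPS they were 58.3 CPM in wt, 34.0 in Eμ-deficient and 72.7 in 3′RR-deficient cells. The order of the genotypes was the same in both states, with Eμ-deficient lowest and 3′RR-deficient highest, and the LPS level of 3′RR-deficient cells lay above the resting level of Eμ-deficient cells.

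Sequences upstream of 3 of these genes are shown because Cr2 and Fcer2a are the pair that separates the subsets by surface staining, and because Cr2 and Cd9 hold letters that the DNA-binding partner of Notch, RBPJ, recognises. RefSeq promoter sequences on build GRCm38.p6 were at hand for 7 of the 9 genes, in 11 windows of 200 bases ending 51 bases before a start. GTGGGAA was searched on both strands. It occurred in the windows of Cr2, 221 bases before the start, and of Cd9, 212 bases before the start. Neither Notch2, Dtx1, Asb2, Plac8 nor Fcer2a had a match in the windows searched, and 1428 of all 32851 windows of this length (4.35%) hold one. A match is a description of letters, and neither a match nor its absence shows whether RBPJ binds. The windows lie at chr1:195176770-195176969, minus strand (Cr2), chr6:125494811-125495010, minus strand (Cd9) and chr8:3694225-3694424, minus strand (Fcer2a), and capitals mark GTGGGAA.
Cr2: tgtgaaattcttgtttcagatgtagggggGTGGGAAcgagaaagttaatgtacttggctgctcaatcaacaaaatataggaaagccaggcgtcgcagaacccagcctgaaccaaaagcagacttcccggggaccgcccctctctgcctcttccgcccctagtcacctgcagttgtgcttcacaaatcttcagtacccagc
Cd9: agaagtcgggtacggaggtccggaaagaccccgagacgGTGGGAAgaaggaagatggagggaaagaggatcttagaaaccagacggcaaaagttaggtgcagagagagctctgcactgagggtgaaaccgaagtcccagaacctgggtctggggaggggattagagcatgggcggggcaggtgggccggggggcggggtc
Fcer2a: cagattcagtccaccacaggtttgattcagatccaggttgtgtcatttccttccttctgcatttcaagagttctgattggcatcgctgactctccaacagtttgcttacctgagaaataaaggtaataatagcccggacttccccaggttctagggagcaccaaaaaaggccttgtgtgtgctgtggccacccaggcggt

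Notch2, the receptor itself, was at 444 CPM in wt, 261 in Eμ-deficient and 401 in 3′RR-deficient resting cells. In LPS cultures it was at 159 CPM in wt, 130.5 in Eμ-deficient and 235 in 3′RR-deficient cells. Eμ-deficient cells were lowest in both states. The Notch2 exons overlap those of other genes on the same strand over 5.02% of their length.

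Dtx1 encodes Deltex1, a ubiquitin ligase that is both a target and a regulator of Notch. Resting levels were 266 CPM in wt, 204 in Eμ-deficient and 157 in 3′RR-deficient cells. With LPS they were 59.9 CPM in wt, 84.2 in Eμ-deficient and 97.4 in 3′RR-deficient cells. Resting wt cells were the highest of the 6 and wt cells with LPS the lowest. Hes1, a transcriptional repressor and a classic Notch target, was at 30.7 CPM in wt, 45.7 in Eμ-deficient and 23.0 in 3′RR-deficient resting cells. In LPS cultures it was at 3.78 CPM in wt, 2.90 in Eμ-deficient and 2.92 in 3′RR-deficient cells, from 79, 31 and 26 counts, and these 3 values lay far below the resting ones.

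Asb2 encodes the substrate-binding part of a ubiquitin ligase and responds to Notch in several blood cell types. It was at 18.9 CPM in wt, 52.8 in Eμ-deficient and 20.8 in 3′RR-deficient resting cells. With LPS it was at 0.478 CPM in wt, 3.56 in Eμ-deficient and 0.562 in 3′RR-deficient cells, from 10, 38 and 5 counts. Eμ-deficient cells were highest in both states. Plac8 encodes a small cysteine-rich protein found in lymphoid and myeloid cells. Its resting levels were 152 CPM in wt, 278 in Eμ-deficient and 188 in 3′RR-deficient cells. With LPS they were 84.2 CPM in wt, 223 in Eμ-deficient and 83.7 in 3′RR-deficient cells. Eμ-deficient cells again stood above the other genotypes in both states, and their LPS level lay above the resting level of the other genotypes.

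Divided by exon length, Plac8 was the most abundant of the 9 in all 6 libraries and Asb2 the least. In resting wt cells the levels per kb of exon were 95.6 CPM for Plac8, 50.5 for Dtx1, 48.5 for Cr2, 41.2 for Notch2 and 38.4 for Fcer2a. Hes1, Cd9 and Cd1d1 followed at 15.1, 11.0 and 10.9, and Asb2 stood at 5.33. Neighbours in this order whose counting intervals overlap are Dtx1 and Cr2, and Cd9 and Cd1d1. In Eμ-deficient resting cells Fcer2a dropped to the 8th place, at 20.8 CPM per kb, with a counting interval that overlaps those of Cd9 and Hes1 just above it. In 3′RR-deficient resting cells Fcer2a took the 2nd place, at 73.1.

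**Figure D1:**
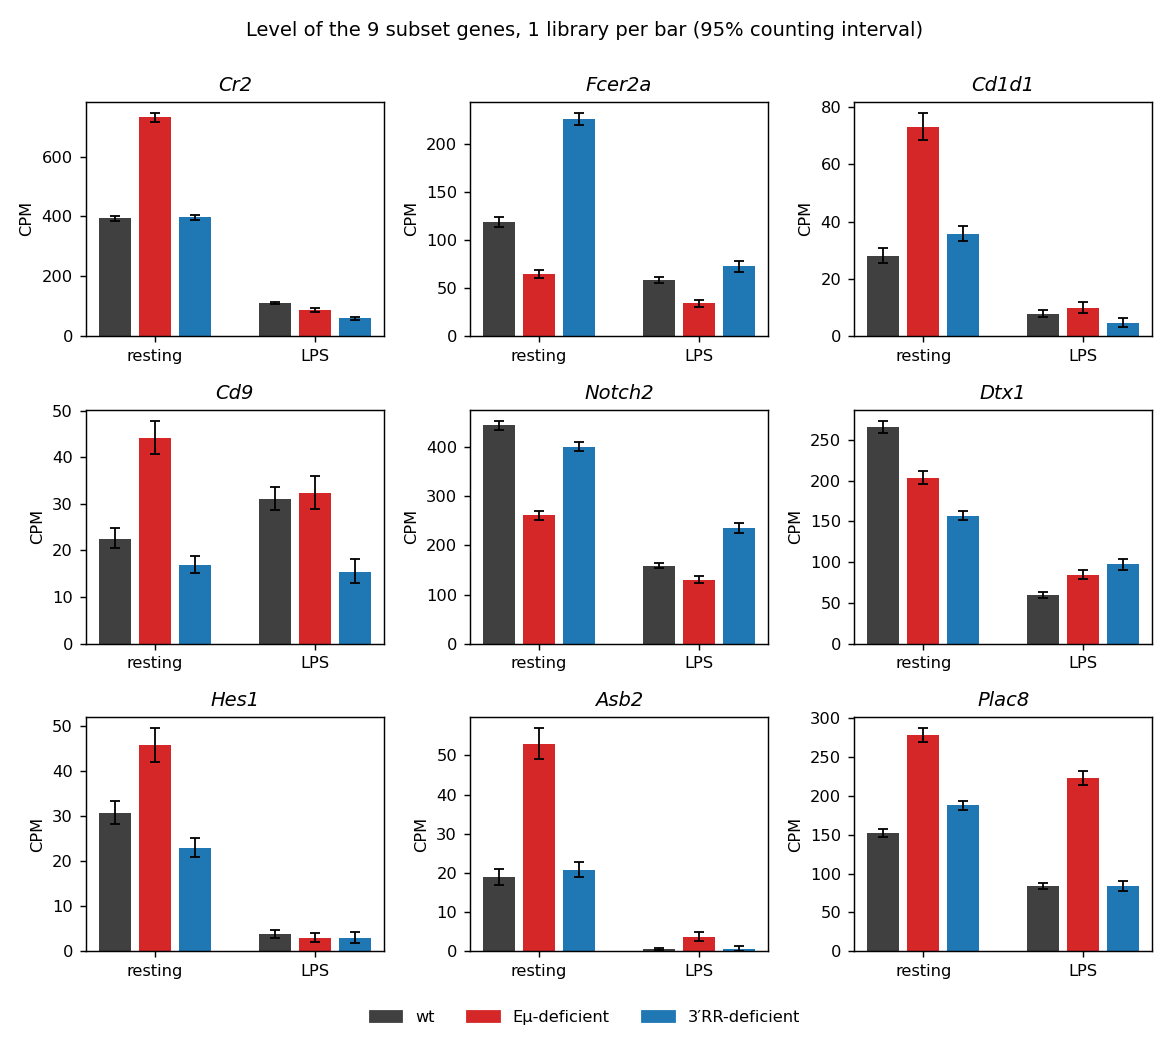
CPM of each of the 9 genes (panels, linear axes from 0) in resting and LPS-treated cells, 1 bar per library with its 95% counting interval and a colour per genotype. Eμ-deficient resting cells reach 731 CPM for Cr2 and 73.2 CPM for Cd1d1 but 64.2 CPM for Fcer2a.

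LPS against resting cells asks how these genes behave when B-cells are activated toward antibody class switching. Cr2, Cd1d1, Notch2, Dtx1, Hes1, Asb2, Plac8 and Fcer2a fell, which makes 8 of the 9 genes lower and 0 higher in edgeR at an adjusted p under 0.05. Over all 14600 genes tested, 21.1% were called lower and 19.7% higher. At an unadjusted p under 0.05 the count was also 8, against 50.3% of all genes, and DESeq2 called 8, against 39.2%. The median log2 fold change was -1.37 over the 9 genes and -0.07 over all genes tested. The model has a term for genotype and a term for state, so its error comes from how far the 3 genotypes differ in their LPS response and not from mice. The quasi-likelihood step of edgeR also draws the spread of each gene toward a trend over all genes tested.

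Asb2 fell the most of the 9, with a log2 fold change of -4.63 ± 0.37 SE, adjusted p = 7.91e-05. Hes1 followed at -3.31 ± 0.30 SE, adjusted p = 1.18e-04. For both genes all 3 genotypes were lower with LPS. Cr2 and Cd1d1, from the surface of marginal zone cells, fell by like amounts, -2.55 ± 0.32 SE, adjusted p = 4.54e-04 for Cr2 and -2.55 ± 0.29 SE, adjusted p = 2.97e-04 for Cd1d1. Dtx1 fell (-1.37 ± 0.32 SE, adjusted p = 0.00830), as did Fcer2a (-1.19 ± 0.25 SE, adjusted p = 0.00532) and Notch2 (-1.09 ± 0.27 SE, adjusted p = 0.0111). Each of these was lower in 3 of 3 genotypes. Plac8 fell the least of the 8 (-0.78 ± 0.26 SE, adjusted p = 0.0418). Its call was lost without the 3′RR-deficient LPS library (-0.58, adjusted p = 0.262), which left 7 of the 9 genes called, and equally without the 3′RR-deficient resting (-0.60), Eμ-deficient resting (-1.02) or Eμ-deficient LPS library (-0.99). That of Notch2 was lost without the Eμ-deficient resting (-1.14, adjusted p = 0.0939) or Eμ-deficient LPS library (-1.11, adjusted p = 0.0959).

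Cd9 was the gene that did not pass, at -0.04 ± 0.25 SE, adjusted p = 0.910. Its log2 ratio of LPS to resting was 0.46 (95% interval 0.28 to 0.64) in wt, -0.45 (95% interval -0.65 to -0.25) in Eμ-deficient and -0.14 (95% interval -0.43 to 0.15) in 3′RR-deficient cells, so the genotypes did not share a direction. Spike-ins varied more in wt than in Eμ-deficient cells in this comparison, with an SD of the log2 ratio of 0.78 in wt (range -1.26 to 1.70), 0.13 in Eμ-deficient and 0.63 in 3′RR-deficient cells. The fitted value for Cd9 turned to 0.01 without the 3′RR-deficient LPS library, to 0.16 without the Eμ-deficient resting library and to 0.19 without the Eμ-deficient LPS library.

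The size of the fall differed between genotypes for some genes. Cr2 had a log2 ratio of LPS to resting of -1.84 in wt, -3.07 in Eμ-deficient and -2.73 in 3′RR-deficient cells. For Dtx1 the values ran the other way, -2.15, -1.27 and -0.69 in the same order, with the steepest fall in wt. Asb2 stood at -5.30 (95% interval -6.38 to -4.41) in wt against -3.89 (95% interval -4.40 to -3.42) in Eμ-deficient cells. None of these differences between genotypes was tested, since 1 library per group leaves no residual for it, and the spike-in SD of the wt pair, 0.78, applies to them as well. The wt ratio of LPS to resting also followed GC content (Spearman rho -0.26) and the Eμ-deficient one hardly did (0.03), and the differences for Cr2, of low GC content, and Dtx1, of high GC content, run the way of that trend.

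**Figure D2:**
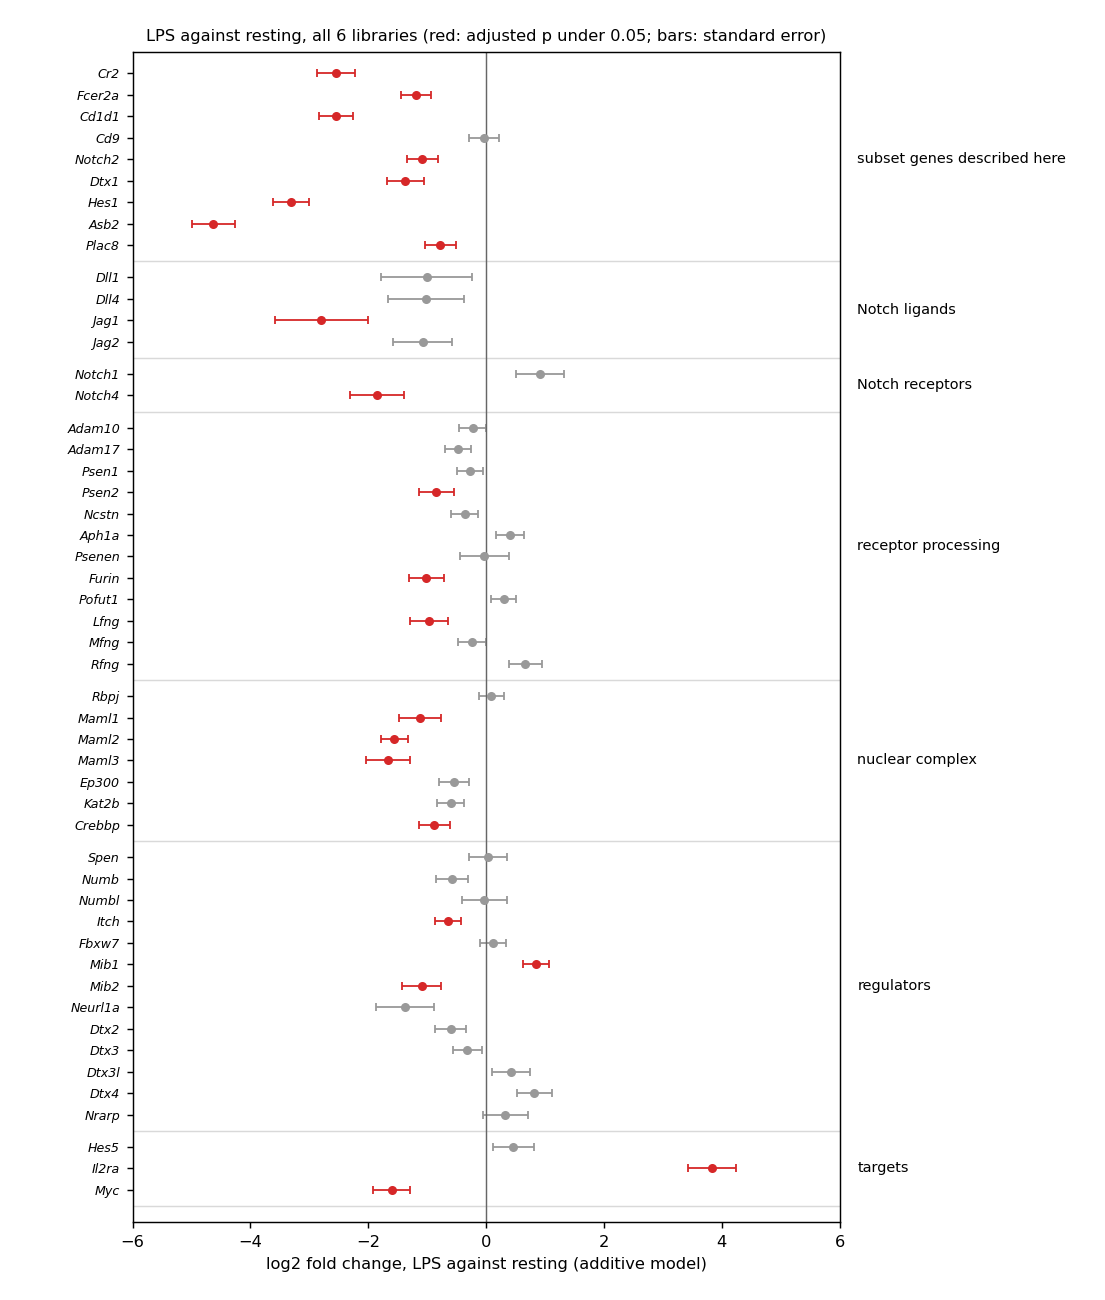
Log2 fold change of LPS over resting from the edgeR fit (points, error bars 1 SE) for the 9 genes and for other genes of the Notch pathway, grouped by role, with genes at an adjusted p under 0.05 in red. Asb2 at -4.63 and Hes1 at -3.31 lie lowest among the 9 and Cd9 at -0.04 lies nearest 0.

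Other genes of the same subsets did not move as one with LPS. Of 6 further marginal zone genes, 3 rose and 2 fell in edgeR, and DESeq2 called the last, Cd36, as well. The sphingosine phosphate receptor S1pr3, which holds cells in the marginal zone, fell (-2.25 ± 0.26 SE, adjusted p = 3.19e-04), as did Myof (-3.06 ± 0.30 SE, adjusted p = 1.51e-04). Mzb1, a chaperone of antibody assembly, rose (2.14 ± 0.25 SE, adjusted p = 3.16e-04), with Tnfrsf13b at 1.57 and Cd24a at 1.88. Of 5 further follicular genes, 4 fell. Klf2, a transcription factor that keeps follicular cells quiescent, was at -3.58 ± 0.26 SE, adjusted p = 6.65e-05. The chemokine receptor Ccr7 (-2.73) and the IgD gene Ighd (-1.73) fell too, and Cxcr5 did not pass (-0.38, adjusted p = 0.209).

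Along the Notch pathway, other genes passed in edgeR besides Notch2, Dtx1 and Hes1. The counts of these lists, and of the lists of subsets and differentiation, stand beside 21.1% of all genes tested called lower with LPS and 19.7% called higher. Of 5 ligand genes 4 could be tested, and Jag1 fell, from 37 counts in resting to 0 in LPS-treated wt cells. Dll1, the ligand of the marginal zone, had 36, 11 and 36 counts in wt, Eμ-deficient and 3′RR-deficient resting cells. Of 2 other receptors tested, Notch4 fell (-1.85 ± 0.46 SE, adjusted p = 0.0119) and Notch1 did not pass (0.91 ± 0.40 SE, adjusted p = 0.0998), although DESeq2 called it, with 40.9 CPM in wt, 21.6 in Eμ-deficient and 27.6 in 3′RR-deficient resting cells and 30.5 CPM in wt, 51.7 in Eμ-deficient and 101 in 3′RR-deficient LPS cells. Of 12 genes that process the receptor, Psen2, Furin and Lfng fell. In the nuclear complex, 4 of 7 genes fell (Maml1, Maml2, Maml3 and Crebbp), and Rbpj itself was at 0.09 (adjusted p = 0.766). Of 13 regulators, Mib1 rose (0.84) and Itch and Mib2 fell. Of 3 other targets tested, Il2ra rose (3.83 ± 0.41 SE, adjusted p = 2.18e-04) and Myc fell (-1.60 ± 0.31 SE, adjusted p = 0.00380). Of 38 genes called with LPS in the lists of subsets, Notch, B-cell differentiation and neighbouring genes, 12 lost their call when 1 library was left out, among them Psen2, Furin, Lfng, Maml1, Crebbp, Itch, Mib1 and Mib2.

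Markers of B-cell differentiation moved in the same comparison. Of 6 plasma cell genes, Prdm1 (3.04) and Xbp1 (1.86) rose. Of 5 germinal centre genes 2 rose, among them Mybl1 (1.54), and 3 fell. Of 6 B-1 genes 2 rose and 2 fell, and of 4 transitional genes tested (of 6 listed) 1 rose and 2 fell. Cd1d2, the neighbour of Cd1d1, fell in edgeR (-1.35 ± 0.46 SE, adjusted p = 0.0411), although DESeq2 did not call it, and Cr1l, the neighbour of Cr2, did not pass (-0.58 ± 0.25 SE, adjusted p = 0.0957).

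The comparison of Eμ-deficient with wt cells carries the question of which B-cell subsets the Eμ-deficient pool held. In resting cells, Cr2, Cd1d1, Cd9, Hes1, Asb2 and Plac8 were higher than in wt, and Fcer2a, Notch2 and Dtx1 were lower, although Dtx1 stood at -0.39 and turned to 0.04 with the GC trend removed and to 0.07 relative to 6 B-cell genes. The log2 ratio was 0.89 (95% interval 0.85 to 0.94) for Cr2, 1.38 (95% interval 1.23 to 1.54) for Cd1d1 and 0.97 (95% interval 0.78 to 1.15) for Cd9. For the follicular gene Fcer2a it was -0.88 (95% interval -1.001 to -0.77). Notch2 stood at -0.77 (95% interval -0.82 to -0.71) and its target Hes1 at 0.57 (95% interval 0.40 to 0.74). Asb2 was at 1.49 (95% interval 1.30 to 1.68) and Plac8 at 0.87 (95% interval 0.80 to 0.94). In bulk RNA, fewer cells of a type and less RNA per cell cannot be told apart.

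Of the 9 genes, 2 were at least 2-fold higher in resting Eμ-deficient cells (Cd1d1 and Asb2) and 0 at least 2-fold lower, against 12.6% and 5.62% of all genes tested. The median log2 ratio was 0.87 over the 9 and 0.03 over all genes. Spike-ins ranged from -0.63 to 1.13 in this pair of libraries, and Cd1d1 and Asb2 lay above that range while Fcer2a and Notch2 lay below it. The spike-in total was 4.75% of counts in wt and 7.10% in Eμ-deficient resting cells. These positions therefore hold only for spike-ins scaled to their own total, and on the scale of the genes the range would lie higher. The ratio of this pair followed GC content (Spearman rho -0.38). With that trend removed Notch2 moved to -0.53, inside the range, Fcer2a to -0.75, still below it, and Cr2 to 0.55. Relative to 6 B-cell genes Fcer2a was at -0.43 and Notch2 at -0.31, both inside it, while Cr2 (1.35), Cd9 (1.42) and Plac8 (1.32) then lay above it. This scaling moves all genes up alike against a range left as it was, so the common shift decides these crossings.

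With LPS some of the 9 genes lay nearer to wt and others further from it, and this difference between states was not tested. Asb2 was at 2.90 (95% interval 1.86 to 4.07) and Plac8 at 1.41 (95% interval 1.32 to 1.497), and these 2 of the 9 were at least 2-fold higher, against 9.12% of all genes. None of the 9 (0) was at least 2-fold lower, against 3.40%. Fcer2a was again lower, at -0.78 (95% interval -0.95 to -0.61). Cr2 now stood below wt, at -0.34 (95% interval -0.45 to -0.23), and Cd1d1 kept a smaller difference, at 0.38 (95% interval 0.01 to 0.74). Cd9 was at 0.06 (95% interval -0.13 to 0.25), so a difference from wt was not detectable at this depth. Dtx1 was at 0.49 and Notch2 at -0.28. Hes1 was at -0.38 from 31 and 79 counts, with a 95% interval of -1.03 to 0.24 that includes 0. Spike-ins of this pair, scaled to their own total, ranged from -0.77 to 0.98, and Asb2 and Plac8 lay above that range. Fcer2a was at its lower limit. It was inside by total count (-0.74) and relative to 6 B-cell genes (-0.59). It was below the limit with the GC trend removed (-0.86) and by DESeq2 size factors (-0.83). The scalings among these settings move all genes alike against a range left as it was. Cr2 moved to -0.13 with the GC trend removed and to -0.15 relative to 6 B-cell genes.

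Fitted over both states, 0 of the 9 genes passed in edgeR, against 1.16% of all genes. At an unadjusted p under 0.05 there were 4, against 8.68% of all genes, and DESeq2 called 2 (Asb2 and Plac8), against 2.33%. The largest value of the 9 was that of Asb2, at 2.00 ± 0.40 SE, adjusted p = 0.0578, higher in both states. Plac8 was at 1.15 ± 0.32 SE, adjusted p = 0.187, Cd1d1 at 0.88 ± 0.34 SE, adjusted p = 0.443 and Fcer2a at -0.83 ± 0.30 SE, adjusted p = 0.387. The median log2 fold change was 0.26 over the 9 and -0.01 over all genes tested. Leaving out a library leaves 1 residual degree of freedom, and where it is a wt or Eμ-deficient one, a single library stands for that genotype and the other libraries supply the spread. In such fits Asb2 passed in 5 of 6, and did not without the Eμ-deficient LPS library (1.49, adjusted p = 0.335). Without the 3′RR-deficient LPS library it was at 1.97 (adjusted p = 0.00759) and without the Eμ-deficient resting library at 2.85 (adjusted p = 0.0105). It also passed with the GC trend removed (2.21) and without a filter on low counts (1.95). Without the wt LPS library Cd1d1 and Plac8 passed as well, with Cd1d1 at 1.39 (adjusted p = 0.00332) against 0.34 without the wt resting library, while calls over all genes grew from 133 higher and 37 lower to 717 higher and 513 lower.

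**Figure D3:**
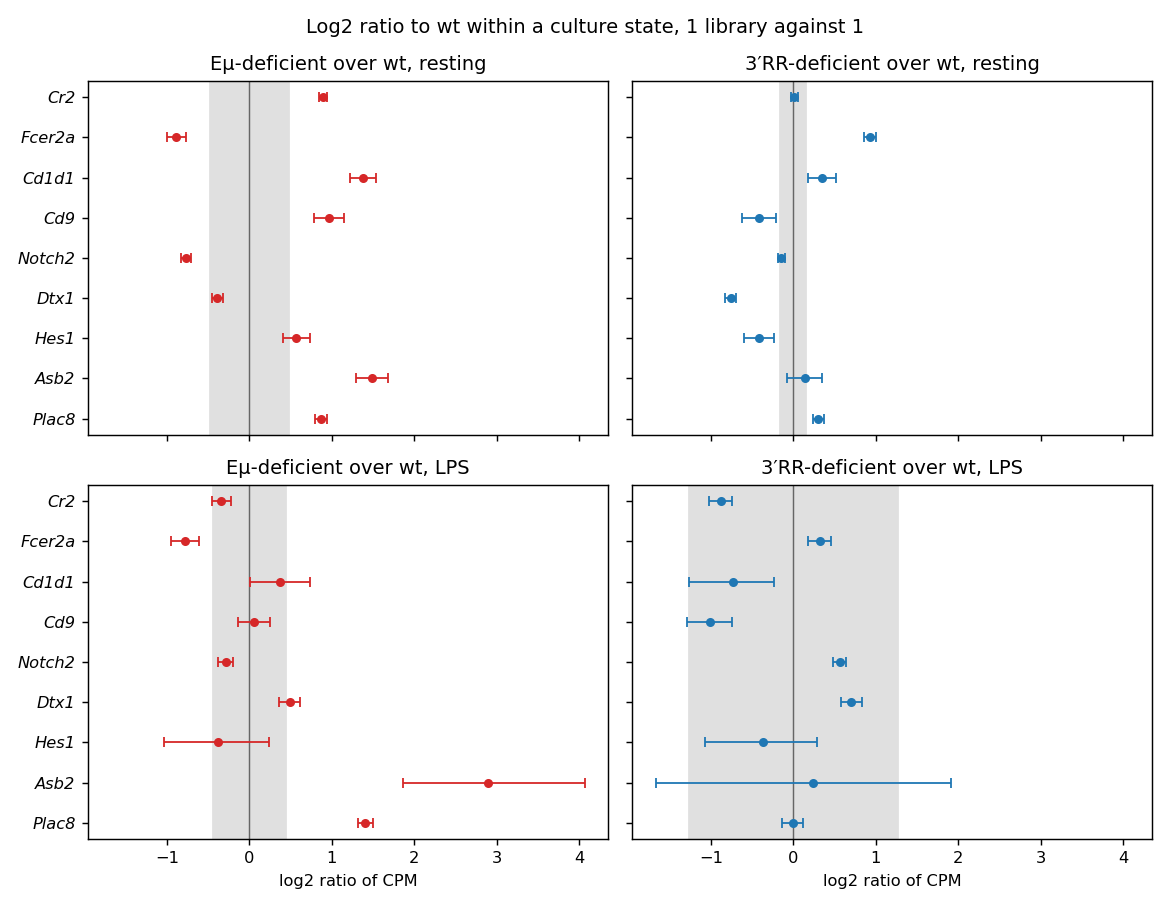
Log2 ratio of each gene's CPM to wt in the same state for Eμ-deficient and 3′RR-deficient cells (points, 95% counting intervals), with a grey band of 1 SD of the spike-in log2 ratios on either side of 0. In Eμ-deficient resting cells Cr2 lies at 0.89 and Fcer2a at -0.88, and the band for 3′RR-deficient cells with LPS, 1.27 on either side of 0, covers all 9 genes.

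Ratios of 2 genes inside 1 library do not depend on how libraries are scaled. Resting wt cells had 3.32 (95% interval 3.16 to 3.49) Cr2 counts per Fcer2a count. The same ratio was 11.4 (95% interval 10.6 to 12.2) in Eμ-deficient and 1.76 (95% interval 1.70 to 1.82) in 3′RR-deficient cells. With LPS it was 1.88 (95% interval 1.76 to 2.02) in wt, 2.56 (95% interval 2.26 to 2.89) in Eμ-deficient and 0.822 (95% interval 0.732 to 0.924) in 3′RR-deficient cells. The order of the genotypes, Eμ-deficient above wt above 3′RR-deficient, was the same in both states and the counting intervals did not overlap within a state. Cr2 and Fcer2a transcripts differ in GC content (41.4% and 51.7%), and a ratio inside a library still carries a GC trend. With that trend removed, the log2 ratio of 3′RR-deficient to wt with LPS went from -0.88 to -0.12 for Cr2 and from 0.32 to 0.07 for Fcer2a, so most of that gap between 3′RR-deficient and wt cells went with it.

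The other marginal zone genes per Fcer2a count were also highest in Eμ-deficient cells. Cd1d1 per Fcer2a was 0.237 in wt, 1.14 in Eμ-deficient and 0.158 in 3′RR-deficient resting cells. Cd9 per Fcer2a was 0.190, 0.687 and 0.0748 in that order. With LPS, Cd1d1 per Fcer2a was 0.131, 0.292 and 0.0634, without a correction for GC content. Plac8 per Fcer2a was 1.28, 4.33 and 0.832 in resting cells. Asb2 per Fcer2a was 0.159, 0.822 and 0.0918.

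Notch targets per receptor transcript differed between genotypes too. Resting cells had 0.599 Dtx1 counts per Notch2 count in wt, 0.781 in Eμ-deficient and 0.392 in 3′RR-deficient cells. For Hes1 per Notch2 the values were 0.0692, 0.175 and 0.0573. Both were highest in Eμ-deficient cells. With LPS, Dtx1 per Notch2 was 0.377, 0.645 and 0.415. The order of 3′RR-deficient and wt cells turned with the GC trend removed, where the log2 ratio to wt was 0.05 for Dtx1 and 0.18 for Notch2. Hes1 per Notch2 with LPS was 0.0238 (95% interval 0.0188 to 0.0297) in wt and 0.0223 (95% interval 0.0151 to 0.0317) in Eμ-deficient cells, a difference within counting error, and 0.0124 (95% interval 0.00811 to 0.0183) in 3′RR-deficient cells, below wt.

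**Figure D4:**
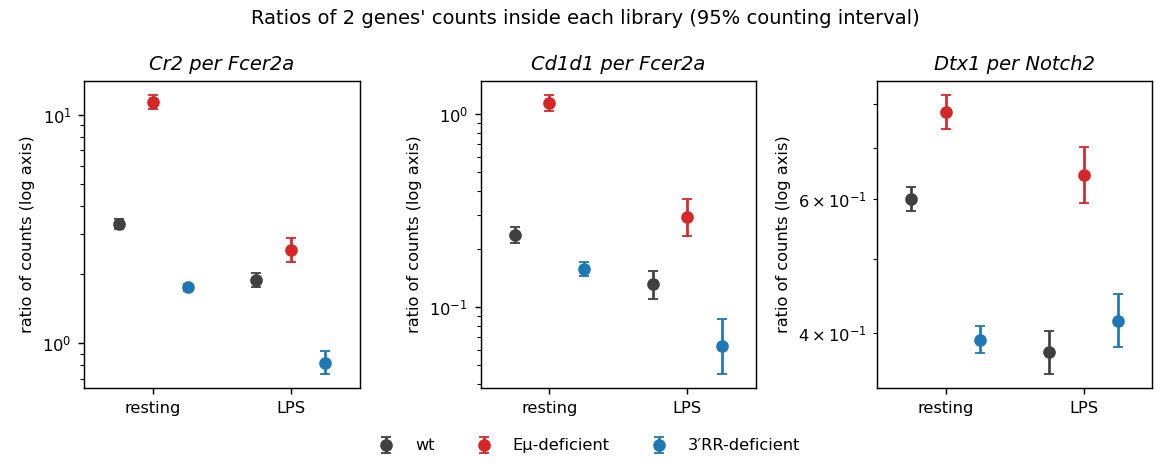
Counts of Cr2 per Fcer2a, Cd1d1 per Fcer2a and Dtx1 per Notch2 inside each library (panels, log axis, 95% counting intervals) in resting and LPS-treated cells, a colour per genotype. Cr2 per Fcer2a is 11.4 in Eμ-deficient resting cells against 3.32 in wt and 1.76 in 3′RR-deficient cells.

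Other genes of the subsets in resting Eμ-deficient cells are given beside these. Of 6 further marginal zone genes 5 stood above wt, with a median log2 ratio of 0.73, and of 5 further follicular genes all 5 stood below, with a median of -0.85, although relative to 6 B-cell genes 2 of these 5 and the marginal zone gene Tnfrsf13b turned to above wt. The scavenger receptor Cd36 was at 26.3 CPM in wt, 91.8 in Eμ-deficient and 46.9 in 3′RR-deficient cells. Myof was at 27.1 CPM in wt, 61.1 in Eμ-deficient and 16.1 in 3′RR-deficient cells. S1pr3 was at 42.8 CPM in wt, 61.1 in Eμ-deficient and 26.6 in 3′RR-deficient cells, the smallest difference of these 3. Among follicular genes, Ighd was at 392 CPM in wt, 80.1 in Eμ-deficient and 198 in 3′RR-deficient cells. Ccr7 was at 213 CPM in wt, 87.3 in Eμ-deficient and 226 in 3′RR-deficient cells, and Klf2 at 306 CPM in wt, 169.9 in Eμ-deficient and 432 in 3′RR-deficient cells. Cxcr5 lay nearer to wt, with a log2 ratio of -0.30, and was one of the genes that turned. With LPS the lists did not keep these directions: 3 of the 6 marginal zone genes stood above wt and 3 below (median 0.37), and 3 of the 5 follicular genes above and 2 below (median 0.05), with 1 gene of each list turning with the scaling. Cd36 was then at 187 CPM in wt, 89.8 in Eμ-deficient and 103 in 3′RR-deficient cells.

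Over both states, 0 of the 6 further marginal zone genes passed in edgeR for Eμ-deficient against wt, with 2 at an unadjusted p under 0.05 and 0 in DESeq2. The shares over all genes tested, which also stand beside the lists that follow, were 1.16%, 8.68% and 2.33% in the same order. Of the 5 follicular genes Ighd was lower (-1.89 ± 0.33 SE, adjusted p = 0.0302), a call lost without the Eμ-deficient resting (-1.63) or LPS library (-2.16). Ighd is itself a gene of the IgH locus from which Eμ was deleted. Of 6 plasma cell genes, Jchain was higher (3.55 ± 0.43 SE, adjusted p = 0.00748), with 113 CPM in wt, 1734 in Eμ-deficient and 171 in 3′RR-deficient resting cells. DESeq2 called 3 of them (Sdc1, Xbp1 and Jchain). Above wt stood 5 of these 6 in resting cells (median log2 ratio 1.19) and 6 with LPS (median 1.52). Of 6 B-1 genes, 4 stood above wt in resting cells (median 0.65) and 5 with LPS (median 0.75). In edgeR 0 of these B-1 genes passed, and DESeq2 called 1 (Ctla4). The 4 transitional genes tested were below wt in both states, with a median log2 ratio of -0.71 in resting cells and -1.09 with LPS, although resting Cd93 turned to above wt by DESeq2 size factors or relative to 6 B-cell genes. In edgeR 0 of these 4 passed, with 2 at an unadjusted p under 0.05 and 0 in DESeq2.

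Several markers of other cells were also higher in the Eμ-deficient resting library. The 7 erythroid genes summed to 3376 CPM in wt, 20380.3 in Eμ-deficient and 3906 in 3′RR-deficient resting cells, with Hba-a1 the most abundant in wt and 3′RR-deficient cells and Hbb-bs in Eμ-deficient cells. All 7 were called higher in Eμ-deficient cells than in wt, against 1.16% of all genes tested called in either direction. The 10 macrophage and monocyte genes summed to 197 CPM in wt, 533 in Eμ-deficient and 217 in 3′RR-deficient resting cells, with Lyz2 the most abundant. In edgeR 0 of these 10 passed for Eμ-deficient against wt, with 10 at an unadjusted p under 0.05, against 8.68% of all genes, and 4 in DESeq2, against 2.33%. The 6 dendritic cell genes, led by Itgax, summed to 69.9 CPM in wt, 151 in Eμ-deficient and 78.7 in 3′RR-deficient resting cells. The 7 genes of follicular dendritic and stromal cells summed to 29.4 CPM in wt, 139 in Eμ-deficient and 55.2 in 3′RR-deficient resting cells. Vcam1, which macrophages also express, made up 20.9, 135 and 48.9 CPM of these in the same order, and Pdpn was at 0 in all 3. Lower in Eμ-deficient than in wt resting cells were Mfge8 (1.44 against 5.34 CPM), Clu (0.98 against 2.70) and Col1a1 (0.15 against 0.33). Cxcl13 (1.21 against 0.11) and Col3a1 (0.38 against 0.055) were higher. The 8 T-cell genes summed to 26.7 CPM in wt, 45.6 in Eμ-deficient and 32.4 in 3′RR-deficient resting cells, with Lck the most abundant in wt and 3′RR-deficient cells and Cd4 in Eμ-deficient cells, where Cd4 reached 24.2 CPM against 9.08 in wt. The 4 NK cell genes (5.89 CPM in wt, 6.73 in Eμ-deficient and 6.27 in 3′RR-deficient cells), the 7 neutrophil genes (3.58 CPM in wt, 5.75 in Eμ-deficient and 16.3 in 3′RR-deficient cells) and the 6 platelet genes (21.5 CPM in wt, 7.42 in Eμ-deficient and 12.6 in 3′RR-deficient cells) were low. The part of these cells in the values of Asb2, Plac8, Cd9, Cd36 or Hes1 was not tested.

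With LPS most of these markers were lower. Erythroid genes summed to 52.9 CPM in wt, 672 in Eμ-deficient and 134 in 3′RR-deficient cells, and macrophage and monocyte genes to 17.2 CPM in wt, 90.0 in Eμ-deficient and 35.9 in 3′RR-deficient cells. Of the latter, Ly6c2 alone made up 1.29, 52.8 and 9.21 CPM in the same order, and in Eμ-deficient cells it stood above its resting level of 14.0 CPM. C1qa, C1qb and C1qc were at 0 in wt cells with LPS, C1qb and Cd14 were at 0 in 3′RR-deficient cells with LPS, and no macrophage gene of the list was at 0 in Eμ-deficient cells with LPS. The erythroid gene Slc4a1 and the T-cell genes Cd3e, Cd8a and Thy1 were at 0 in wt cells with LPS. Between resting cells and LPS, 7 of 7 erythroid genes and 9 of 10 macrophage and monocyte genes fell, as did 4 of 6 dendritic cell genes, against 21.1% of all genes tested called lower. In the same comparison Asb2 and Hes1 fell the most of the 9 genes, and the part of other cells in that was not tested either. Dendritic cell genes summed to 31.1 CPM in wt, 37.9 in Eμ-deficient and 35.5 in 3′RR-deficient LPS cells, most of it Flt3, which was at 17.1 CPM in resting and 27.7 in LPS-treated wt cells. T-cell genes summed to 4.97 CPM in wt, 16.7 in Eμ-deficient and 12.9 in 3′RR-deficient LPS cells, and stromal genes to 1.39 CPM in wt, 3.47 in Eμ-deficient and 5.50 in 3′RR-deficient LPS cells. The genes of NK cells (0.191 CPM in wt, 2.53 in Eμ-deficient and 0.449 in 3′RR-deficient cells), neutrophils (0.143 CPM in wt, 2.06 in Eμ-deficient and 1.01 in 3′RR-deficient cells) and platelets (2.20 CPM in wt, 4.31 in Eμ-deficient and 3.03 in 3′RR-deficient cells) were lowest in wt.

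**Figure D5:**
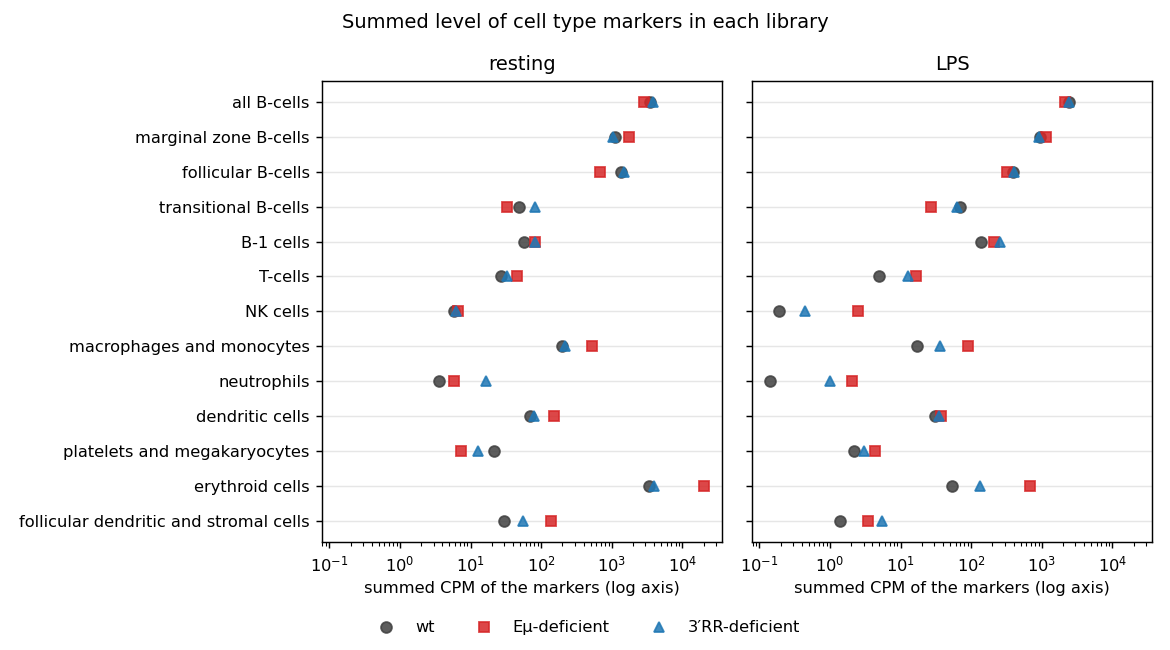
Summed CPM of each list of cell type markers (log axis) in every library, resting and LPS panels, a colour per genotype. Erythroid genes reach 20380.3 CPM in Eμ-deficient resting cells against 3376 in wt, and follicular genes stand at 673 CPM against 1364. Of that follicular sum, Ighd, a gene of the IgH locus itself, makes up 80.1 CPM in Eμ-deficient and 392 in wt resting cells.

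The comparison of 3′RR-deficient with wt cells shows the same genes in a second mutant of the locus. In resting cells Fcer2a was higher, at 0.93 (95% interval 0.86 to 1.01), and Dtx1 was lower, at -0.76 (95% interval -0.83 to -0.70). Cr2 stood at 0.01 (95% interval -0.03 to 0.06), and its sign turned with the scaling, to -0.18 by total count and -0.16 relative to 6 B-cell genes. Asb2, at 0.14 (95% interval -0.07 to 0.35), also turned, to -0.05 by total count. Cd1d1 was at 0.35, Plac8 at 0.31, Notch2 at -0.15, Cd9 at -0.41 and Hes1 at -0.42. Of the 9 genes 0 were at least 2-fold higher and 0 at least 2-fold lower, against 5.38% and 3.95% of all genes tested. The spike-ins of this pair, scaled to their own total, ranged from -0.24 to 0.34, and Fcer2a and Cd1d1 lay above that range and Cd9, Dtx1 and Hes1 below it. By total count and relative to 6 B-cell genes Cd1d1 was inside it (0.16 and 0.17) and Notch2 below it (-0.34 and -0.32). These scalings move all genes down alike against a range left as it was, so the common shift decides these crossings.

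With LPS, none of the 9 ratios of 3′RR-deficient to wt cells left the spike-in range, -2.60 to 2.17. Cd9 was the 1 gene at least 2-fold lower, at -1.01 (95% interval -1.29 to -0.74), against 10.7% of all genes, and with the GC trend removed it was at -0.74. None of the 9 (0) was at least 2-fold higher, against 15.9%. Cr2 was at -0.88 and, with the GC trend removed, at -0.12. Cr2 transcripts have the lowest GC content of the 9 genes, 41.4%. Dtx1, with the highest at 62.5%, was at 0.70 and then 0.05. Notch2 was at 0.56 and then 0.18, and Fcer2a at 0.32 and then 0.07. Cd1d1 kept most of its value, -0.73 and then -0.63. Plac8 was at -0.01 and turned to 0.08, and Asb2, from 5 counts, was at 0.23 and turned to -0.43.

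Over both states, 0 of the 9 genes passed in edgeR for 3′RR-deficient against wt cells, against 0.678% of all genes. The count at an unadjusted p under 0.05 was 1 (Cd9), against 5.69% of all genes, and DESeq2 called 0, against 1.22%. Cd9 was at -0.73 ± 0.31 SE, adjusted p = 0.822, lower in both states, and Fcer2a was at 0.64 ± 0.30 SE, adjusted p = 0.914, higher in both. The median log2 fold change was -0.05 over the 9 and 0.04 over all genes tested. With 1 library left out, Fcer2a ranged from 0.30 without the 3′RR-deficient resting library to 0.96 without the 3′RR-deficient LPS library, where Cd9 was at -0.66. Cd9 was at -0.34 without the wt LPS library, and without the wt resting library Cr2 and Cd9 passed, with Cd9 at -1.09 (adjusted p = 0.0232), while calls over all genes grew from 25 higher and 74 lower to 821 higher and 700 lower. Of the 6 further marginal zone and 5 further follicular genes 0 passed in edgeR, with 0 at an unadjusted p under 0.05 and 0 in DESeq2.

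Between the mutants themselves, Fcer2a, Cd9 and Asb2 stood furthest apart in resting cells. The log2 ratio of Eμ-deficient to 3′RR-deficient was -1.82 (95% interval -1.92 to -1.71) for Fcer2a, 1.38 (95% interval 1.19 to 1.58) for Cd9 and 1.35 (95% interval 1.17 to 1.52) for Asb2. It was 1.04 (95% interval 0.90 to 1.18) for Cd1d1, 0.99 for Hes1 and 0.88 (95% interval 0.84 to 0.92) for Cr2. Over both states Fcer2a was at -1.47 ± 0.31 SE, adjusted p = 0.0604, lower in Eμ-deficient cells in both states. Cd9 was at 1.24 ± 0.31 SE, adjusted p = 0.122 and Asb2 at 1.80 ± 0.42 SE, adjusted p = 0.0950, higher in both states. Of the 9 genes 0 passed in edgeR, against 1.30% of all genes, with 6 at an unadjusted p under 0.05, against 12.5%, and DESeq2 called 3 (Fcer2a, Cd9 and Asb2), against 2.51%. The median log2 fold change was 0.73 over the 9 and 0.01 over all genes. Leaving out the wt LPS library brought the count to 7 of 9 and leaving out the wt resting library to 6, but calls over all genes grew as well, from 155 higher and 35 lower to 1038 higher and 872 lower and 866 higher and 792 lower. In these 2 settings Fcer2a was at -1.46 and -1.49. Among regulators of Notch, Neurl1a was higher in Eμ-deficient than in 3′RR-deficient cells (3.42 ± 0.67 SE, adjusted p = 0.0488), with 3.74 CPM in wt, 3.86 in Eμ-deficient and 0.389 in 3′RR-deficient resting cells, a call lost without the 3′RR-deficient resting (2.92) or Eμ-deficient LPS library (3.02) and when scaled by total count (adjusted p = 0.0581). The plasma cell gene Jchain was higher too (2.69 ± 0.41 SE, adjusted p = 0.0171), a call lost without the Eμ-deficient (2.12) or 3′RR-deficient resting library (2.23) and with the GC trend removed (2.07).

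Across the 6 libraries, Cr2, Cd1d1, Hes1 and Asb2 varied alike. Pearson's r of log2 CPM, a description over 6 libraries, was 0.982 for Cr2 with Cd1d1, 0.984 for Cr2 with Hes1 and 0.979 for Cd1d1 with Asb2. Fcer2a was most like Notch2 (0.889) and ran against Cd9 (-0.610). Of 7923 genes, the most alike to Cr2 were Ifrd1 (r = 0.998), Bmp2k (r = 0.997) and Cd180 (r = 0.997). Those most like Fcer2a were Ifngr2 (r = 0.995) and Icam2 (r = 0.993). Cd1d1 was most like Chka (r = 0.999), Cd9 most like Ebag9 (r = 0.995) and Notch2 most like Jakmip1 (r = 0.998). For Dtx1 the nearest gene was Pqlc1 (r = 0.996), for Hes1 Nr1d2 (r = 0.998) and for Plac8 Slc30a9 (r = 0.992). Next came Havcr2 (r = 0.997) and Cyp4f16 (r = 0.997) for Hes1, and 9230112E08Rik (r = 0.991) and Cd300lf (r = 0.979) for Plac8. Asb2 was most like Tyrobp (r = 0.998), an adaptor of myeloid and NK cell receptors, and next Alas2 (r = 0.997), an enzyme of haem synthesis in erythroid cells.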

How the data were processed

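RNA-seq counts of 6 libraries (3 genotypes in 2 states, 1 library each) were used as the authors deposited them: per the submitters' notes, reads were aligned to mm10 with STAR 2.4.0a and read counts per gene made with featureCounts of Subread 1.4.6-p1, with multi-mapping reads counted and strand option 1. The 92 spike-in RNAs (4.75 to 7.10% of counts) were left out of the scaling. Genes with at least 10 counts in 2 or more libraries were fitted in edgeR 4.0.16 (R 4.3.3; TMM, quasi-likelihood, genotype plus state, 2 residual degrees of freedom) with Benjamini-Hochberg adjustment over all 14600. Ratios within a state used exact binomial intervals (scipy 1.17.1) with counts raised to a floor of 3. Named genes are the 9, fixed lists of subset, Notch and cell type genes, and for each of the 9 the 3 genes of highest r among 7923 with a mean of at least 10 CPM. The genes and lists were chosen with earlier results of these data known. Alternatives were DESeq2 1.42.0, other scalings and filters, the GC trend (for ratios also the length trend) removed, no genotype term, and each library left out.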

Additional observations from a re-analysis of the deposited data

Results flagged for a closer look

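Some genes had ratios of opposite sign in the compared groups, and none of these differences was tested because there was 1 library per group. The log2 ratio of Eμ-deficient to wt for Cr2 was 0.89 in resting cells and -0.34 with LPS, the latter within the spike-in range of its pair and at -0.13 with the GC trend removed. For Dtx1 it was -0.39 in resting cells, which turned to 0.04 with the GC trend removed and 0.07 relative to 6 B-cell genes, and 0.49 with LPS. The log2 ratio of 3′RR-deficient to wt for Cd1d1 was 0.35 in resting cells and -0.73 with LPS. For Notch2 it was -0.15 and 0.56, and for Dtx1 -0.76 and 0.70, in the same order. All 3 LPS values of 3′RR-deficient cells lie within the spike-in range of that pair of libraries. The log2 ratio of LPS to resting for Cd9 was 0.46 in wt, -0.45 in Eμ-deficient and -0.14 in 3′RR-deficient cells, where the counting interval includes 0, and the wt value is smaller than the spike-in SD of its pair, 0.78.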

How the results depend on the processing

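Replicate numbers could not be used for pairing, as each group holds 1 library. For LPS against resting, the genotype term matches the resting and LPS library of each genotype, so the main fit is a matched one. The fit without that term is the unmatched alternative. With LPS, 8 of the 9 genes were called, and 6 to 8 under each of 14 alternatives. For Eμ-deficient against wt the count of 0 became 2 with DESeq2, 1 without a filter on low counts and 1 with the GC trend removed. For Eμ-deficient against 3′RR-deficient it became 3, 3 and 1 under the same settings. With each library left out in turn the count was 0 to 3 for Eμ-deficient against wt, 0 to 2 for 3′RR-deficient against wt and 0 to 7 for Eμ-deficient against 3′RR-deficient, and 6 to 8 for LPS. The value of Cd9 with LPS then ranged from -0.29 to 0.19 and changed sign. For each of these, the cause was not tested. Fcer2a lost its LPS call without a genotype term (adjusted p = 0.0631), and so did Plac8 (adjusted p = 0.265). Asb2 could not be tested under the filter that asks for 10 counts in all 6 libraries. All-gene counts depended on the setting, given here in the order DESeq2, no filter and 10 counts in all 6 libraries. Called higher, Eμ-deficient against wt: 133 became 277, 484 and 84, and 166 to 717 with 1 library left out. Called lower there, 37 became 63, 121 and 12, and 28 to 513 with 1 library left out. For 3′RR-deficient against wt, 25 became 56, 135 and 7, and 38 to 821 with 1 library left out (higher), and 74 became 122, 204 and 24, and 70 to 700 with 1 library left out (lower). For Eμ-deficient against 3′RR-deficient, 155 became 281, 550 and 76, and 147 to 1038 with 1 library left out (higher), and 35 became 85, 227 and 15, and 26 to 872 with 1 library left out (lower). With LPS, 2883 called higher became 1875 without the Eμ-deficient resting library and 1907 without the Eμ-deficient LPS library. Scaling by total count moved the median log2 ratio of all genes by -0.20 in resting Eμ-deficient and -0.19 in resting 3′RR-deficient cells. Scaling to 6 B-cell genes moved it by 0.46 and -0.17, and by 0.19 in Eμ-deficient cells with LPS.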
